A study of Arabidopsis thaliana with 16 samples.

Results

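The genes described here encode parts of the 2 photosystems of Arabidopsis thaliana and proteins that attach to or assemble them. They are PSAN, PSBW, PSBY, LHB1B2, AT1G22700 and AT1G76450, and they were taken by name from the platform's gene table, each from a probe listing that gene alone. Each had 1 such probe, so they account for 6 of 692 probes naming 1 gene and 6 of 3439 probes in all. RNA of 8 samples of wild type (WT) and 8 samples of the gun1-1 mutant, numbered 1 to 8 in each genotype and both in the ecotype Columbia 0, had been measured on arrays of 1 channel per sample. The comparison asks how a defect in plastid signaling, the description the labels give of the mutant, goes with the level of these transcripts. Tissue, age, growth conditions, and whether the numbered samples were separate plants or repeat measurements, are unknown here. The SDs therefore measure only the spread between these samples. Each SE of a log2 difference comes from a fit that pools this spread with that of the other probes tested. The 6 genes were selected on their log2 difference between gun1 and WT, which was already known, and on their role, AT1G22700 and AT1G76450 from among the largest rises and falls. Their differences between the genotypes are therefore a description, and no p-value is attached to them.

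Photosystem II splits water and photosystem I reduces ferredoxin, and both sit in the thylakoid membrane with antenna proteins that bind chlorophyll. Their reaction centres are encoded in the plastid, while many small subunits, the antenna and most assembly factors are nuclear genes whose products are imported. GUN1, a pentatricopeptide repeat protein of the plastid, belongs to the signaling by which the state of the plastid acts on nuclear genes of photosynthesis. The classic phenotype of gun mutants is that antenna genes stay active in seedlings whose plastids have been damaged. Whether these plants had undamaged plastids is not stated.

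The deposited intensities run from 0 to 100 in every sample. Medians over all probes lay between 0.130 and 0.157 for WT and between 0.216 and 0.259 for gun1, so the samples were brought to one distribution by quantile normalization before testing. Of 3419 probes tested with limma, 1088 (31.8%) passed an adjusted p of 0.05 and are referred to as called, with 567 higher and 521 lower in gun1. The share of calls that were higher was 52.1% here, 85.5% without scaling, 88.9% when samples were scaled on their 343 brightest probes and 34.2% with a common median. Samples with the same number deviated together across the genotypes, and so the number was tried as a block. None of 7 seed storage genes had a probe of its own, and markers of other tissues were not looked for, since the labels name no tissue.

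After quantile normalization the subunit and antenna genes were bright and differed by a log2 of 0.32 or less in size. The auxiliary genes, picked for large differences, were dim and differed in opposite directions. AT1G22700 was 4.67-fold higher in gun1 and AT1G76450 3.92-fold higher in WT. The small differences of the bright genes hinged on the scaling. With a common median they ran from -0.25 for PSBW to -0.998 for PSBY. On the normalized scale the log2 differences, gun1 minus WT, were 0.18 for PSAN, 0.32 for PSBW, -0.18 for PSBY and -0.02 for LHB1B2, against 2.22 for AT1G22700 and -1.97 for AT1G76450. Of the 6 genes, 3 were called, PSBW and AT1G22700 higher and AT1G76450 lower, beside the 31.8% of all probes, and nothing is read from that count because this difference chose the genes. The median difference of the 6 was 0.08, against -0.05 over all probes tested. All 4 subunit and antenna probes fell in the brightest of 10 equal classes of probes by mean level, where 29.2% were called and the median size of the log2 difference was 0.25. Both auxiliary probes fell in class 3 counted from the dimmest, where 30.4% were called and the median size was 0.65, and where 11 of 342 probes, or 3.22%, differed by over 1.9. Brightness depends on the probe as well as on the transcript, so it ranks spots here and not transcripts. In RNA of whole samples, fewer cells of a type and less RNA per cell cannot be told apart.

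**Figure D1:**
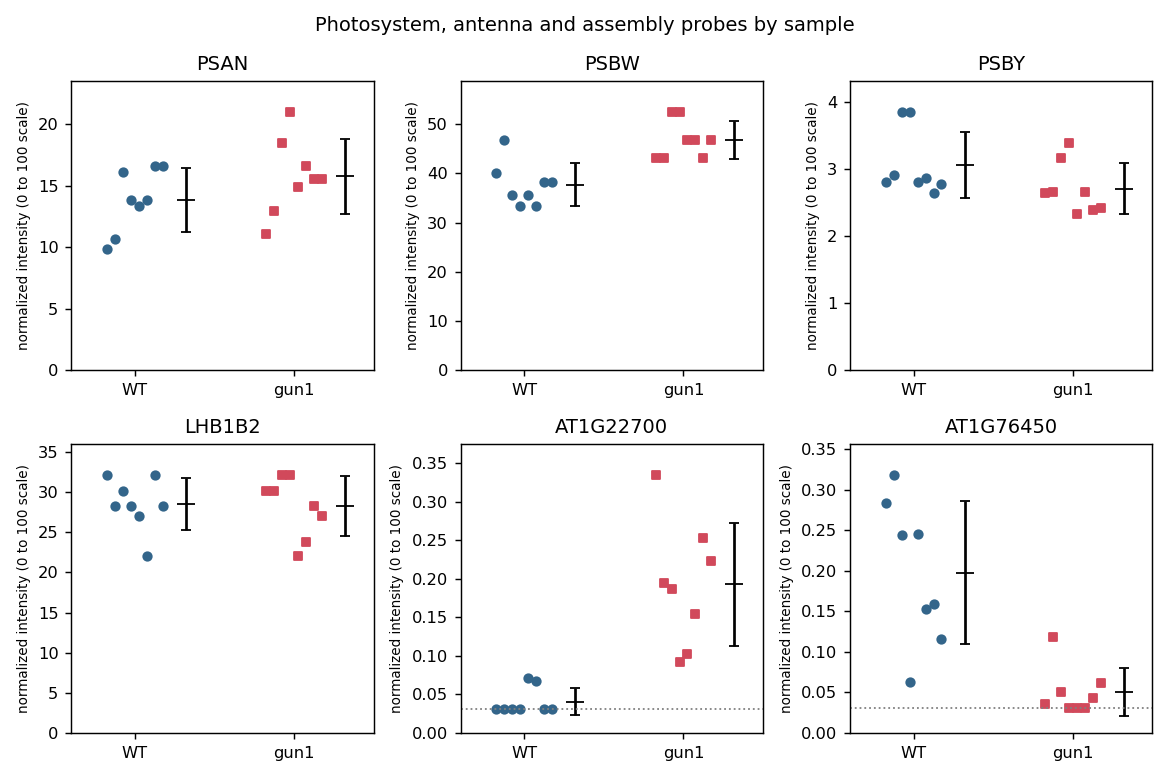
Normalized intensity of the 6 probes in each WT sample (circles) and gun1 sample (squares), in order of sample number from left to right, with the mean ± SD over 8 samples beside them and each axis starting at 0; the dotted line in the lower middle and lower right panels is the floor of 0.0313. The groups are apart for AT1G22700, with 6 WT samples at the floor, and overlap for the other genes, for PSBW through WT sample 2 at 46.8, above 3 gun1 samples.

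PSAN is a small subunit of photosystem I on the lumen side, near the place where plastocyanin docks. Its normalized intensity was 9.84 at the lowest, 13.9 at the median and 16.6 at the highest in WT, while gun1 ran from 11.03 through 15.5 to 21.0. The groups overlapped over most of their range, and samples 1 and 2 were the lowest of both genotypes. The means were 13.9 ± 2.59 and 15.7 ± 3.08 (SD, n = 8 each), a log2 difference of 0.18 (SE 0.16) that was not called. It was higher in gun1 in 6 of 8 numbers after normalization and in 5 of 8 as deposited.

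PSBW is a small nuclear-encoded subunit of photosystem II that helps hold the complex together with its antenna. Its probe was among the brightest on the array, ranking 9 to 14 in the WT samples and 8 to 10 in the gun1 samples, counted from the brightest. As deposited, its intensity was 30.2 at the lowest, 34.1 at the median and 39.9 at the highest in WT, and 42.5, 47.5 and 59.2 in gun1. Every gun1 sample thus lay above every WT sample before scaling, as did 12% of all probes tested. After normalization the groups overlapped. WT sample 2, at 46.8, ranked 9 and lay above gun1 samples 1, 2 and 7, at 43.2 and rank 10, so that gun1 was higher in 7 of 8 numbers and lower by a log2 of -0.12 in number 2. The normalized mean was 46.9 ± 3.86 in gun1, against 37.7 ± 4.37 for WT (SD over 8 samples each), a 1.25-fold difference (log2 0.32, SE 0.11). PSBW was called in this fit and not with the sample number as a block, where the SE was 0.12, nor with consecutive numbers treated as related, nor with fewer samples, in numbers 1 to 4, in numbers 5 to 8 or without numbers 7 and 8. The log2 difference lay between 0.29 and 0.36 when single samples were left out, and the call was lost in 8 of these 16 fits, those without WT sample 3, 4, 5, 6 or 7 or gun1 sample 3, 4 or 8.

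PSBY belongs to photosystem II, where it lies near cytochrome b559, and in Arabidopsis its precursor is cut into a pair of small membrane peptides. Its normalized intensity was 2.64 at the lowest, 2.84 at the median and 3.85 at the highest in WT, and 2.32, 2.65 and 3.38 in gun1. The groups overlapped, yet within each number the gun1 sample was lower, in 8 of 8 cases both normalized and as deposited. The differences by number ran from -0.28 to -0.09 with an SD of 0.07, around a mean log2 difference of -0.18 (SE 0.13 without and 0.10 with the sample number as a block), which was called in neither fit. Both SEs pool the spread of PSBY with that of the other probes, so they do not measure the spread of its own differences alone.

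LHB1B2 encodes a chlorophyll a/b protein of the main antenna of photosystem II, one of several near-identical Lhcb1 genes. The gene table lists LHB1B2 alone for its probe; whether the probe also bound RNA of the other copies was not tested. Its normalized intensity was 22.1 at the lowest, 28.3 at the median and 32.2 at the highest in WT, and 22.1, 29.3 and 32.2 in gun1, so that the ranges coincided. The means were 28.6 ± 3.24 and 28.3 ± 3.74 (SD, n = 8 each). The log2 difference of -0.02 (SE 0.12) was smaller than its error, and its sign changed with the scaling, to 0.02 without scaling and 0.05 with cyclic loess. With a common median it was -0.71 and was called.

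AT1G22700 encodes PYG7, a thylakoid protein needed to assemble photosystem I. As deposited, 4 of 8 WT samples were at 0, and the others had 0.00916, 0.0188, 0.0325 and 0.0364. In gun1 the lowest value was 0.110, the median 0.240 and the highest 0.406. Every gun1 sample was above every WT sample, both as deposited and after normalization. Groups apart with gun1 higher were found for 12% of the probes tested as deposited and for 4.8% after normalization. Among the probes of its own array, AT1G22700 lay at percentile 4.06 at the lowest, 7.76 at the median and 21.7 at the highest in WT, and at 27.1, 50.1 and 69.5 in gun1. The probe thus went from among the dimmest of the array to near its middle, a change in rank that no scaling which keeps the order of probes alters. Its size is less certain than its direction. The log2 difference of 2.22 (SE 0.28) was reached with 6 WT samples at the floor, and became 0.97 with the floor at the 20th percentile of positive values, 1.25 with a pseudocount of 0.1 in place of a floor and 3.36 with the floor at the 1st percentile. By number it ranged from 0.53 in number 5 to 3.42 in number 1; the WT samples above the floor were those of numbers 5 and 6.

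AT1G76450 encodes a lumen protein of the PsbP family, relatives of the PsbP subunit that supports water splitting. As deposited its intensity was 0.0261 at the lowest, 0.1496 at the median and 0.281 at the highest in WT, and 0, 0.0589 and 0.169 in gun1. WT sample 4 was far below the other WT samples, gun1 sample 2 was above the other gun1 samples, and the groups overlapped. After normalization 6 of the WT samples lay above the highest gun1 sample. The percentile on its own array was 19.8 at the lowest, 51.3 at the median and 68.0 at the highest in WT, and 3.34, 14.5 and 33.7 in gun1. The log2 difference was -1.97 (SE 0.34) with 3 gun1 samples at the floor, and gun1 was lower in 8 of 8 numbers after normalization but in 6 of 8 as deposited. It was -1.16 without scaling and -1.12 when scaled on the brightest probes, neither of them called, and -0.98 with the floor at the 20th percentile. It was also not called in numbers 1 to 4 alone, at -1.93.

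**Figure D2:**
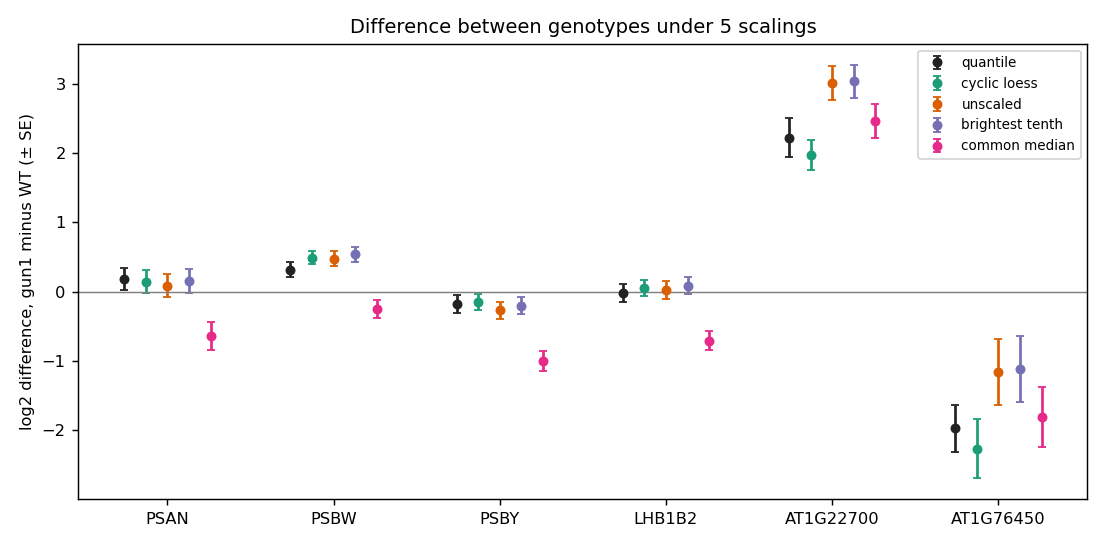
Log2 difference gun1 minus WT with its SE for each of the 6 probes, under quantile normalization, cyclic loess, no scaling, scaling on the 343 brightest probes and a common median. AT1G22700 stayed above 0 and AT1G76450 below 0 in all 5, while PSAN, PSBW and LHB1B2 changed sign, the first 2 with a common median alone.

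The scaling between samples set the sign of the difference for PSAN, PSBW and LHB1B2. A common median lowered all 4 bright genes, to -0.64 for PSAN, -0.25 for PSBW, -0.998 for PSBY and -0.71 for LHB1B2, and called PSAN, PSBY and LHB1B2. That scaling called 45.3% of all probes tested, 1020 of the 1551 calls being lower in gun1. Over all probes the median difference was then -0.18, and relative to that shift the 4 values were -0.46, -0.07, -0.82 and -0.53. Without scaling the median of all probes was 0.41, and relative to it PSAN lay at -0.33, PSBW at 0.07, PSBY at -0.68 and LHB1B2 at -0.39. Relative to all probes PSBY was thus lower in gun1 under each of the 5 scalings, from -0.08 with cyclic loess to -0.82 with a common median. PSBW was the highest of the 4 under each of them.

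Ratios between probes of one array are free of any factor applied to the whole array, though not of an amount added to every probe, and show unequal change without saying which of a pair changed. The log2 ratio of PSBW to PSBY, from deposited values, was 3.17 at the lowest, 3.52 at the median and 3.66 at the highest in WT, and 4.09, 4.21 and 4.31 in gun1. The groups were apart, and the mean ratio was higher in gun1 by 0.75, from 3.47 ± 0.18 to 4.21 ± 0.07 (SD, n = 8 each). The ratio of PSBW to LHB1B2 was also apart, its highest WT value being 0.44 and its lowest gun1 value 0.46, with a mean difference of 0.46. PSBW over PSAN and LHB1B2 over PSBY overlapped between the genotypes but shifted in one direction in each of the 8 numbers, the mean log2 ratio of PSAN to PSBW being lower in gun1, at -1.64 against -1.25, and that of PSBY to LHB1B2 lower as well, at -3.45 against -3.16. PSAN over PSBY overlapped too, and was higher in gun1 in 7 of 8 numbers, by 0.36 on average. PSAN over LHB1B2 differed by 0.07, less than its SD of 0.32 in WT and 0.39 in gun1. Of the 6 ratios between these genes 2 were apart between the genotypes, beside 13.1% of the 58653 pairs among the 343 brightest probes. Nothing is read from that count, because the ratios restate the differences that chose the genes. Both ratios that were apart also hold PSBW, so they are not independent. As deposited, PSBW thus stood higher against PSBY in every gun1 sample than in any WT sample. After quantile normalization, which is not a single factor per array, the groups met. In log2, PSBW and PSBY were at 5.55 and 1.54 in WT sample 2 and at 5.71 and 1.76 in gun1 sample 4. For PSBW over LHB1B2 the groups met too, through WT sample 2 and gun1 sample 1.

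**Figure D3:**
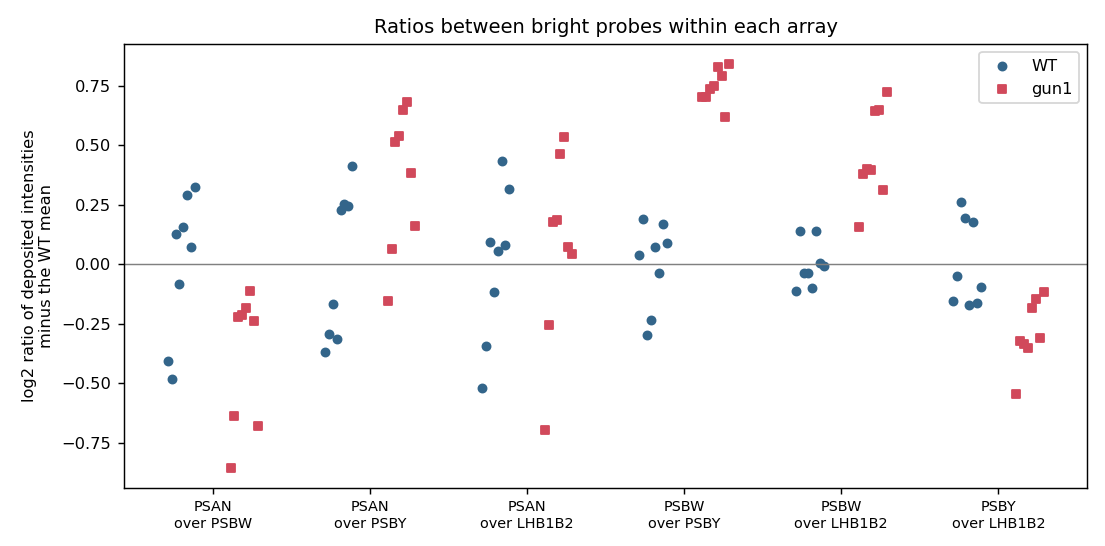
Log2 ratio of deposited intensities for each pair of bright genes in each sample, less the mean of the 8 WT samples, with WT as circles and gun1 as squares. The groups do not meet for PSBW over PSBY and for PSBW over LHB1B2, and overlap for the other pairs.

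Deviations from the genotype mean, which the choice of genes did not use, followed the sample number for some of these genes. PSBY was highest in samples 3 and 4 of both genotypes, with normalized intensities of 3.85 in both WT samples and of 3.16 and 3.38 in gun1. Over the 8 numbers the deviations in WT and gun1 had a Pearson r of 0.94, a value reached by 1.04% of 2014 probes above the floor in all samples, whose median was 0.32. PSAN had an r of 0.70 and LHB1B2 of 0.61. On deposited, unscaled values, an alternative chosen after seeing the data, r was 0.91 for PSBY, 0.62 for PSAN and 0.66 for LHB1B2. For PSBW the sign turned with the scaling, from -0.70 on normalized values, which take few levels at its ranks, to 0.35 on deposited ones, so no pattern by number is read from it. These values describe 8 numbers of which consecutive ones deviated together, and no p is given. Between the genes, PSAN and PSBW had an r of -0.53 over the 8 WT samples and of 0.86 over the 8 gun1 samples, or -0.34 and 0.69 on deposited values. Across the other pairs r lay between -0.41 and 0.41 for WT and between 0.13 and 0.75 for gun1. On deposited values these pairs lay between -0.33 and 0.77 for WT and between 0.21 and 0.90 for gun1. The r of PSBW and PSBY in WT turned from -0.41 to 0.61.

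**Figure D4:**
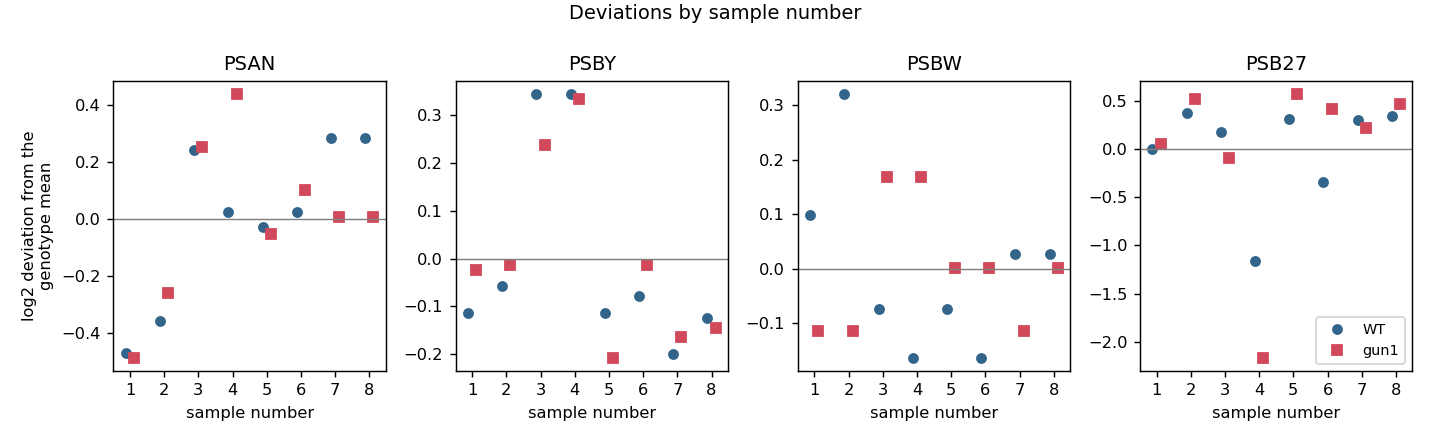
Log2 deviation of each sample from the mean of its genotype, by sample number, for PSAN, PSBY, PSBW and PSB27, with WT as circles and gun1 as squares. Values are quantile normalized. In PSBY and PSB27 both genotypes deviate alike, PSB27 being lowest in number 4 of both, as they do on deposited values (r of 0.91 and 0.85 over 8 numbers); for PSBW the r of -0.70 turns to 0.35 on deposited values.

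For each gene above the floor in all 16 samples, the named probes with the most similar deviations were taken by Pearson r of normalized values over the 16 samples, among 383 candidates. The closest to PSAN was ATSPS4F, a sucrose phosphate synthase gene, at 0.80, then AT2G15440 and AT2G44760 at 0.75 and 0.74. The closest to PSBY were AT2G47360 at 0.79, AT2G39360 at 0.74 and HEMA3, a glutamyl-tRNA reductase gene of tetrapyrrole synthesis, also at 0.74. LHB1B2 had AT5G33390 at 0.77, AT4G24750 at 0.72 and AT4G31470 at 0.70, and PSBW had AT2G03390 at 0.67, AT2G26100 at 0.66 and AT4G23110 at 0.58. The normalized values of PSBW take few levels. Its r with AT2G03390 was 0.84 in WT and 0.32 in gun1, that with AT4G23110 0.50 and 0.84, and that with AT2G26100 0.67 and 0.66. None of the closest probes named was for a photosystem gene, and each is among the highest of many, so the values describe likeness in these arrays only.

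Few other genes of the pathway were measured singly. Of 115 nuclear loci listed for the photosystems, their antenna, assembly, PsbP-like and PsbQ-like proteins and electron transport, 8 had a probe of their own, the 6 genes above among them, and 9 appeared in probes naming several genes, which are not named here. The photosystem I list held 1 measured gene of 12, the photosystem II list 3 of 15, the antenna list 1 of 21, the assembly list 2 of 28 and the PsbP-like list 1 of 12, while electron transport and ATP synthase had 0 of 27. Over the 8 measured genes, 2 were called higher and 1 lower, beside 16.6% and 15.2% of all probes tested. All of these calls were among the 6 genes, which were chosen on this difference, so nothing is read from the count.

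PSB27, a lumen protein that takes part in assembling and repairing photosystem II, was 1 of the remaining 2. Its normalized intensity was 0.405 at the lowest, 1.07 at the median and 1.17 at the highest in WT, and 0.307, 1.72 and 2.04 in gun1. Sample 4 was the lowest of both genotypes, and the other 7 gun1 samples lay above every WT sample. The log2 difference was 0.61 (SE 0.35, limma adjusted p = 0.200, higher in 7 of 8 numbers), and with the sample number as a block the limma adjusted p was 0.0253. Without gun1 sample 4 the difference was 0.92 (limma adjusted p = 0.00554), and with a common median it turned to -0.09. Over its 31 limma alternatives the adjusted p ran from 0.00554 to 0.843. AT1G54500, a rubredoxin-like protein of photosystem II assembly, had a mean of 1.24 ± 0.124 over the WT samples and 1.16 ± 0.240 over the gun1 samples (SD, n = 8 each), a log2 difference of -0.11 (SE 0.14) that was not called (limma adjusted p = 0.574).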

How the data were processed

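The labels and files do not state how the values were made. Per the table itself, what the authors deposited are linear intensities between 0 and 100, and 2 probes stand at 100 in all 16 samples; background correction and any cap are not stated. Samples were grouped by title. Quantile normalization used limma 3.58.1 (R 4.3.3); deposited zeros and values under the 5th percentile of the other values were set to that floor, 0.0313, and log2 was taken. Left out were 20 constant probes. The difference gun1 minus WT was fitted on the remaining 3419 probes with lmFit and eBayes, two-sided, with no covariate, and adjusted by Benjamini-Hochberg. The number of arrays limits the precision. Names came from the platform's gene table (1 gene for 692 probes, several for 870, none for 1877), updated through Entrez numbers for 690 with RefSeq's TAIR10.1 table.

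The members, lists and alternatives were chosen with earlier results of these data known. Genes named are the 6 members, listed pathway genes with a probe of their own and the 3 closest probes per member. On data simulated for this comparison with 3419 probes, a change of 1.5-fold was recovered for 28 of 100 probes and one of 2-fold for 52 of 100, with 5 false among 85 calls. The simulated samples were independent and every changed probe rose. The changed probes were a smaller share of all probes than the 31.8% called in the data. In the data same-numbered samples deviated together and calls went in both directions, so these counts need not hold there. Numbers pair the samples: deviations of same-numbered samples correlated in all 8 cases, with r from 0.143 to 0.421 across probes, so the pairing rests on the values, the labels having numbers alone. Alternatives covered scaling, floor, filter, block, consecutive numbers, variance model, exact rank sums and single samples left out. Figures used matplotlib 3.10.9.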

Additional observations from a re-analysis of the deposited data

Results flagged for a closer look

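Of 16 groups of 8 samples examined on normalized intensities, 2 held a sample far from the rest. Chance alone would flag about 1 in 20, a rate that need not hold where values are tied at the floor. AT1G76450 was high in gun1 sample 2, at 0.118 against a median of 0.0355 in the other gun1 samples, 3 of which were at the floor. As deposited, gun1 sample 2 was at 0.169 and the next, gun1 sample 8, at 0.0983. PSB27 was low in gun1 sample 4, at 0.307 against 1.84 in the others, and WT sample 4 was the lowest of WT too, at 0.405. No cause was tested for either value.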

How the results depend on the processing

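The count of members called was 3, and 5 with a common median, where 1551 of all 3422 probes (45.3%) were called, 1020 of them lower in gun1, and 1 in numbers 1 to 4 alone. It lay between 2 and 3 when single samples were left out. The count of all probes called was 1088. It was 592 with consecutive numbers averaged, 583 in numbers 1 to 4 and 324 in numbers 5 to 8, where fewer samples entered, and lay between 996 and 1065 with single samples left out; with the replicate block it was 1293. Of the 2 other photosynthesis genes 0 were called by limma, and 1, with a common median (AT1G54500), with the replicate block, in numbers 5 to 8, by the exact rank sum test and without gun1 sample 4 (PSB27 in each); the range over single samples left out was 0 to 1. With a common median the log2 difference turned to -0.64 for PSAN, -0.25 for PSBW and -0.0935 for PSB27. For LHB1B2 (-0.0195) it turned to 0.0193 unscaled, 0.0518 with cyclic loess, 0.0844 scaled on the 343 brightest probes, 0.0697 in numbers 1 to 4, 0.0155 without numbers 7 and 8, and ranged from -0.0714 to 0.0297 with single samples left out. The cause of these turns was not tested. AT1G22700, which was chosen from among the largest rises in this comparison, kept its direction and its call in all 32 alternatives. The alternatives reuse the same samples, so they describe the effect of the processing and are no further support for the difference. The replicate block ended the call of PSBW, made that of PSB27 and changed no other call among the members and AT1G54500. Values near the floor limit AT1G22700 and AT1G76450.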
